A study of Rattus norvegicus with 102 samples.

Results

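Gene expression in hippocampal subfield CA3 was compared between old rats classed as impaired and old rats classed as unimpaired in a spatial water maze. The comparison used 24 of the 102 libraries of the series, which were all CA3 libraries labelled old and impaired (n = 12 rats) or old and unimpaired (n = 12 rats). All were male Fischer 344 rats (spelled Fisher in the labels) of 17 to 22 months with no genetic or drug treatment named, and each gave 1 hippocampus, cut by hand into CA1, CA3 and dentate gyrus (DG). The class rested on a probe trial in the pool, and neither the individual scores nor the site at which a rat was tested was given by the labels. CA3 of young rats of 5 to 6 months (n = 10) and CA1 and DG of the same old rats are given beside the genes that stood out.

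CA3 holds large pyramidal cells that receive mossy fibres from dentate granule cells and excite one another through recurrent collaterals, a circuit held to complete a stored memory from a partial cue. Their firing is shaped by kainate, AMPA and NMDA receptors for glutamate, by GABA released from local interneurons, and by potassium and calcium channels. CA3 is also known for overactivity in aged animals with poor spatial memory. The tissue piece holds interneurons, glia and vessels too, so that fewer cells of a type and less RNA per cell cannot be told apart in these data.

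Poly-A RNA of each piece was read on 2 machines, an Illumina HiSeq and an Ion Proton. Values are reads divided by a size factor of the library and are called normalised reads. Differences are impaired minus unimpaired on the log2(value + 1) scale with their SE, from limma in the Illumina table unless another is named. The Illumina libraries held 3.25 to 42.8 M reads on genes in impaired and 5.28 to 35.6 M in unimpaired rats, and the Ion Proton libraries 5.48 to 13.8 M and 7.57 to 14.99 M. Following the study, a gene with an unadjusted p under 0.01 in the Illumina table was called a seed gene. It was called retested if the Ion Proton values moved the same way with a one-sided p under 0.05. Both tables came from RNA of the same rats, so the retest repeats the measurement of each animal and adds no animals.

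The label CA3 was checked against fixed markers of CA3 (Grik4, Bok, Iyd, Cpne4 and others), CA1 and dentate granule cells, each scored as the mean log2 difference from the average of all 102 libraries. The scores lay nearest to CA3 in 19 of the 24 libraries by the Illumina values, in 19 by the Ion Proton values and in 18 by both. Unimpaired rats R9862 (Illumina, CA1) and R2237 (Ion Proton, DG) were nearer to another subfield by 1 table alone. In 4 libraries they were closer to a different subfield by the Illumina as well as the Ion Proton values, namely impaired rats R9781 and R9870 and unimpaired rat R9865 to DG and impaired rat R9875 to CA1. These 4 are called displaced. All 4 came from rats numbered from 9000 up, and the rat numbers were the only sign of a batch in the labels. In that number series (5 impaired, 6 unimpaired) CA3 scores ran from -0.45 to 0.15 and from -0.85 to 0.22, against 0.42 to 0.74 and 0.52 to 0.82 in rats below 9000 (7 impaired, 6 unimpaired). The lowest CA3 scores of the 24 libraries were those of unimpaired rats R9869 and R9860, at -0.85 and -0.55 by the Illumina and -0.94 and -0.65 by the Ion Proton values, although neither library was displaced. By the WT table, described below, R9860, unimpaired rat R9867 and impaired rat R9874 lay nearest to CA1. In that table R9869, R9862 and R2237 lay nearest to CA3. The number series separated libraries far more than the maze did. With both in 1 limma fit, 6403 of 14232 genes (45%) had an adjusted p under 0.05 for the series in the Illumina table and 1959 of 15315 (12.8%) in the Ion Proton table. The study tested 5 young and 11 aged rats in Arizona and 5 young and 13 aged rats in Florida. Rats from 9000 up were likewise 5 young and 11 aged, and rats below 9000 were 5 young and 13 aged. The labels do not link a rat to a site. In the Ion Proton table the library of impaired rat R1931 also stood apart, with a correlation of 0.816 across genes with the median of the other 23 libraries, which themselves ran from 0.896 to 0.990. In the Illumina table the lowest correlation was that of impaired rat R9875, 0.932 against 0.963 to 0.994 for the others, and this library was also the shallowest, with 3.25 M reads.

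**Figure D1:**
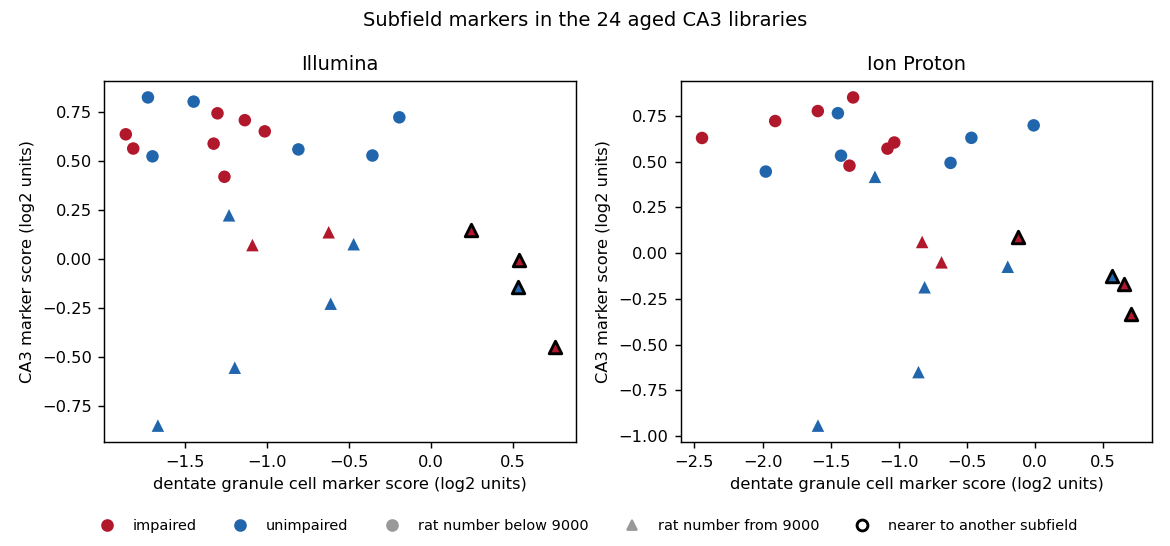
Each point is 1 aged CA3 library, placed by its score for dentate granule cell markers (x axis, log2 units) and for CA3 markers (y axis, log2 units) in the Illumina and Ion Proton tables. Colour gives the maze class and shape the number series. Rats below 9000 sit together at high CA3 scores, and the 4 outlined libraries lie nearer to another subfield.

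No gene separated impaired from unimpaired CA3 after correction for the number of genes. Of 14232 genes tested, 0 had a Benjamini-Hochberg adjusted p under 0.05 in limma, and the smallest adjusted p was 0.9998. With edgeR and DESeq2 the count was also 0, and so it was in the Ion Proton table. At an unadjusted p under 0.05 limma found 199 genes (1.4%), of which 124 were higher (0.871%) and 75 lower (0.527%) in impaired rats. edgeR found 190 (1.34%) and DESeq2 198 (1.39%), while p-values spread evenly would give 711.6. There were 23 seed genes (0.162% of those tested), 16 higher (0.112%) and 7 lower (0.0492%) in impaired rats, where even p-values would give 142.3. The Ion Proton table had 221 of 15315 genes under 0.05 (1.44%) and 22 under 0.01 (0.144%). Retested genes numbered 3, or 0.0216% of the 13906 genes tested in both tables, and all 3 were higher in impaired rats. In none of the 14232 genes did the groups fail to overlap (0%).

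Differences in CA3 were small beside the spread between rats. The median SE of a log2 difference was 0.105 in CA3, 0.0832 in CA1 and 0.0760 in DG. Half-widths of the 95% intervals in CA3 had a median of 0.216. The interval lay wholly within 0.5 of 0 in 11413 genes (80.2%) and within 1 of 0 in 13764 (96.7%). A fitted log2 difference above 1 in size was found for 7 genes and above 0.5 for 114. With the number series in the model the median SE was 0.0902, genes with an unadjusted p under 0.05 numbered 351 (2.47%), and 0 passed the adjusted threshold.

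**Figure D2:**
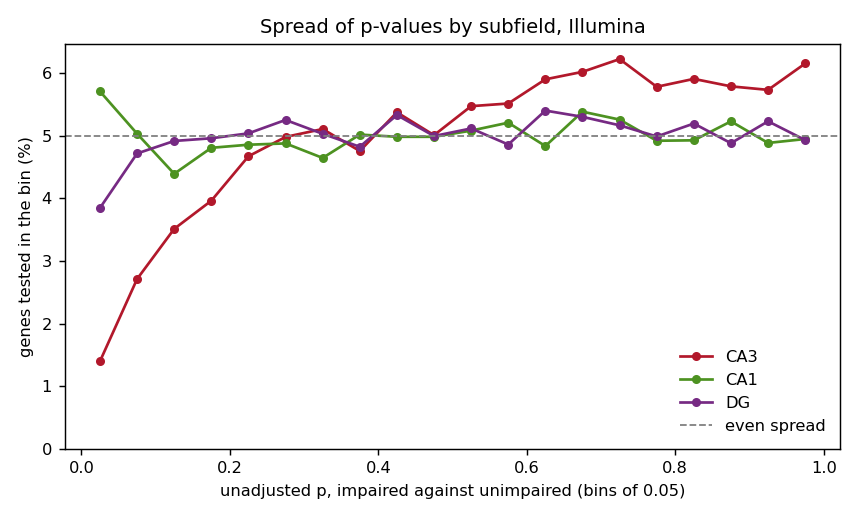
The share of tested genes (y axis, %) in each bin of unadjusted p (x axis, bins of 0.05) for impaired against unimpaired rats in CA3, CA1 and DG, Illumina table. The lowest bin holds 1.4% of genes in CA3, 5.71% in CA1 and 3.85% in DG, and the dashed line marks an even spread of 5%.

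Acvr1c (chromosome 3 in rn5), a type I receptor for activin-like and nodal ligands of the TGF-beta family, was 1 of the 3 retested genes. In the Illumina table it ran from 72.3 to 145 (median 93.3) normalised reads in impaired and from 32.9 to 112 (median 58.3) in unimpaired rats. The ranges overlapped, but 12 of 12 impaired libraries lay above the unimpaired median. The difference was 0.57 ± 0.186 (95% interval 0.19 to 0.96, p = 0.00474). In the Ion Proton table the gene ran from 43.1 to 297 (median 85.8) and from 13.8 to 111 (median 56.3), a difference of 0.90 ± 0.313 with a one-sided p of 0.00385. Here 11 of 12 impaired libraries were above the unimpaired median, and rat R1931 was the highest with 297. The lowest unimpaired values came from rats R9869 and R9860 in Illumina, with 32.9 and 33.9, and these libraries also had the lowest CA3 marker scores. Without both the Illumina difference was 0.39 ± 0.160 (p = 0.0218), in a fit chosen after the scores had been seen. Young CA3 held from 35.3 to 112 (median 70.0), a range that covered both old groups' medians. Medians of impaired and unimpaired rats were 60.2 and 49.1 in CA1 and 119.9 and 106 in DG, with differences of 0.12 ± 0.236 and 0.12 ± 0.138.

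Gabrb1 (chromosome 14), the beta-1 subunit of the GABA-A receptor, the chloride channel through which GABA inhibits neurons, was retested as well. In the Illumina table it ran from 335 to 705 (median 414) normalised reads in impaired and from 242 to 435 (median 357) in unimpaired rats. Of the impaired libraries, 10 of 12 lay above the unimpaired median, and the highest value came from rat R9875, whose markers lay nearer to CA1. The difference was 0.28 ± 0.0970 (95% interval 0.085 to 0.48, p = 0.00692). Without rat R9875 it was 0.22, with p = 0.00883. Ion Proton values ran from 376 to 2082 (median 539) and from 308 to 616 (median 433). The difference there was 0.43 ± 0.195, with a one-sided p of 0.0185. The 2082 of rat R1931 was far above all other libraries, and without that rat the Ion Proton difference was 0.26. Young CA3 held from 259 to 519.9 (median 364). CA1 medians were 299 in impaired and 294 in unimpaired rats, and DG medians 393 and 387, and the fitted differences were -0.092 ± 0.116 and -0.014 ± 0.0867. The WT table gave 0.064 ± 0.09997 for CA3.

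Pcdh19 (chromosome X), a delta-2 protocadherin that joins neurons by adhesion and is known from an inherited epilepsy, was the last retested gene. In the Illumina table it ran from 523 to 1868 (median 669) normalised reads in impaired and from 217 to 721 (median 496) in unimpaired rats. All 12 impaired libraries lay above the unimpaired median. Rat R9875 again gave the highest value, while unimpaired rats R9869 and R9860, the libraries of lowest CA3 score, gave the lowest, 217 and 233. The difference was 0.57 ± 0.202 (95% interval 0.16 to 0.99, p = 0.00896). It was 0.44 without rat R9875, with p = 0.0159, and 0.35 ± 0.163 without rats R9869 and R9860, with p = 0.0400. In the Ion Proton table the ranges were from 624 to 3111 (median 949.6) and from 258 to 1066 (median 676), and the difference 0.67 ± 0.237 had a one-sided p of 0.00453. Without rat R1931 that difference was 0.51. Young CA3 held from 331 to 870.1 (median 659), with a median close to that of impaired rats. In DG, where medians were 953 in impaired and 1006 in unimpaired rats, the difference was -0.095 ± 0.185, and in CA1 it was 0.10 ± 0.209.

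**Figure D3:**
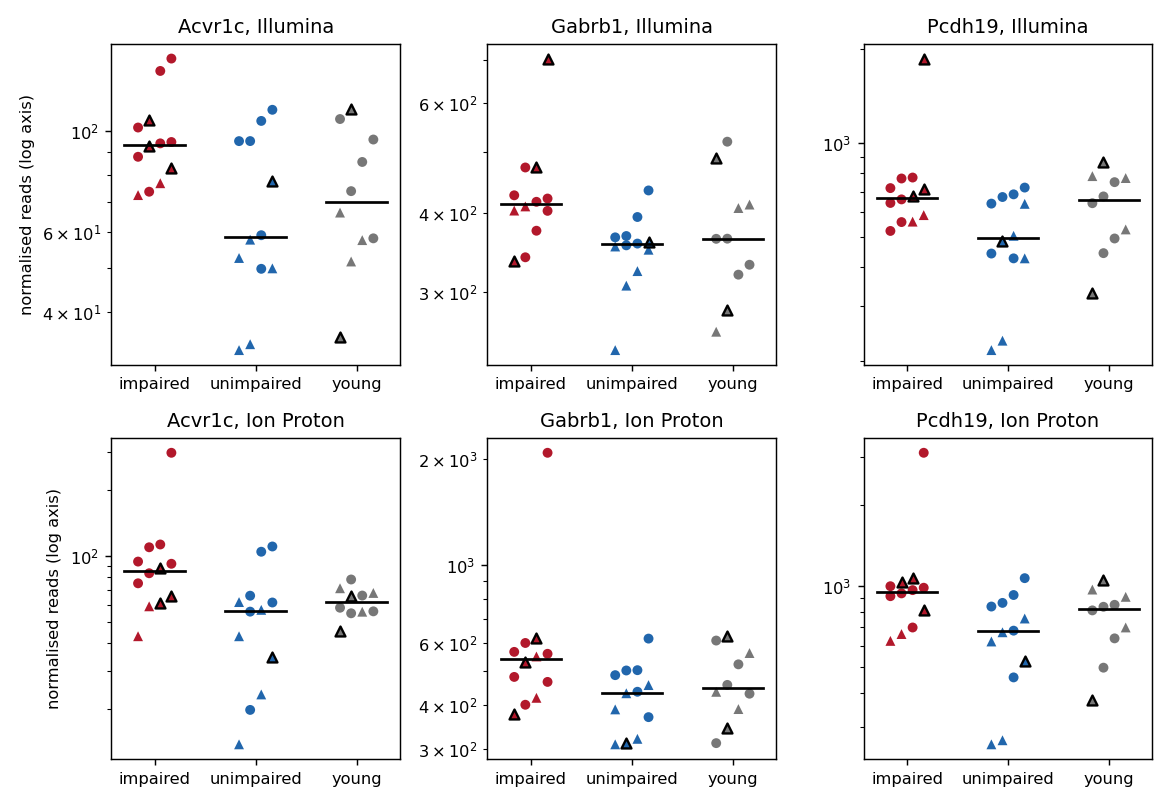
Normalised reads (log axis) of the 3 retested genes in each CA3 library of impaired, unimpaired and young rats, Illumina above and Ion Proton below. Circles are rats below 9000 and triangles rats from 9000 up, black outlines mark libraries nearer to another subfield, and bars are medians. Impaired medians lie above unimpaired ones in every panel, and all the groups overlap.

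The 3 genes had larger Illumina differences in rats from 9000 up than in rats below 9000. For Acvr1c the difference was 0.80 against 0.31, for Gabrb1 0.49 against 0.10, and for Pcdh19 1.02 against 0.17. The difference between the series, tested after these values had been seen, had p = 0.122, 0.0432 and 0.0324, each with an adjusted p of 0.942 in limma over all genes. In the Ion Proton table the values were closer, 0.82 against 0.84 for Acvr1c, 0.43 against 0.37 for Gabrb1 and 0.79 against 0.48 for Pcdh19. Without the 4 libraries that lay nearer to another subfield the Illumina differences were 0.61, 0.23 and 0.42, with p = 0.0111, 0.0102 and 0.0418, so that none remained a seed gene. Of the 24 fits that each left out 1 library, Acvr1c was retested in 22, Gabrb1 in 19 and Pcdh19 in 9. With edgeR the p of Acvr1c was 0.0144 and that of Pcdh19 0.0128, so that of the 3 genes Gabrb1 alone was retested, while DESeq2 retested Acvr1c and Pcdh19 but not Gabrb1. Leaving out unimpaired rat R9860 left 0 retested genes, leaving out R9869 left 1 (Acvr1c), and leaving out unimpaired rat R2232 gave 8. Without both R9869 and R9860, the libraries with the lowest CA3 scores, 0 genes were retested, and Gabrb1 had 0.21 ± 0.0918 (p = 0.0281). With the Illumina CA3 score as a covariate 8 genes were retested, among them Acvr1c (0.48 ± 0.146, p = 0.00308) and Gabrb1 (0.27 ± 0.0970, p = 0.00979) but not Pcdh19 (0.52 ± 0.195, p = 0.0135).

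The study had named 8 genes for cognition in CA3, chosen on these samples, so that their directions here are not independent evidence. Of the 7 that could be tested, 6 had an unadjusted p under 0.05 against 1.4% of all genes, 4 were seed genes and 2, Gabrb1 and Pcdh19, were retested. Gda, guanine deaminase or cypin, which also acts in dendrite growth, ran from 1044 to 1532 (median 1302) in impaired and from 694 to 1454 (median 1085) in unimpaired rats. Its lowest unimpaired values lay well under the impaired range, and 11 of 12 impaired libraries were above the unimpaired median. The difference was 0.36 ± 0.117 (p = 0.00462), and 0.33 ± 0.238 in the Ion Proton table with a one-sided p of 0.0885. Without rat R1931 the Ion Proton difference was 0.14 (p = 0.415). DESeq2, the study's method, did retest Gda, with an Illumina difference of 0.32 (p = 0.00706). Its young median was 1237, and the differences were 0.21 ± 0.165 in CA1 and -0.042 ± 0.1001 in DG.

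Pcdh17, a second delta-2 protocadherin with a known place at synapses, ran from 694 to 1304 (median 922) in impaired and from 535 to 966 (median 755) in unimpaired rats, with a young median of 838. Its difference was 0.29 ± 0.102 (p = 0.00836), and 11 of 12 impaired libraries were above the unimpaired median. The Ion Proton value was 0.26 ± 0.174, one-sided p = 0.0719, and 0.15 without rat R1931. CA1 and DG gave -0.051 ± 0.126 and -0.11 ± 0.0869. Msrb2, a mitochondrial enzyme that reduces oxidised methionine, was lower in impaired rats, unlike the other study genes that were tested. It ran from 157 to 257 (median 219) and from 192 to 352 (median 245), with 10 of 12 impaired libraries under the unimpaired median, and differed by -0.27 ± 0.105 (p = 0.0148). Its Ion Proton difference was -0.45 ± 0.230, and -0.30 without rat R1931. Its young median was 219.9, and its differences were -0.032 ± 0.0739 in CA1 and 0.011 ± 0.0989 in DG. Within rats below 9000 and from 9000 up the differences were 0.27 and 0.45 for Gda, 0.28 and 0.31 for Pcdh17 and -0.25 and -0.29 for Msrb2. Without rats R9869 and R9860, the libraries of lowest CA3 score, they were 0.28 (p = 0.0213), 0.24 (p = 0.0269) and -0.21 (p = 0.0586). In the Ion Proton table the series values were 0.34 and 0.27 for Gda, 0.41 and 0.016 for Pcdh17 and -0.46 and -0.32 for Msrb2. WT differences were smaller in size than the Illumina ones, 0.19 (p = 0.198) for Gda, 0.14 (p = 0.350) for Pcdh17 and -0.17 (p = 0.253) for Msrb2.

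Prl, the gene of the pituitary hormone prolactin, was carried by few libraries. Most libraries of both groups held 3 reads or fewer, 7 of 12 impaired and 10 of 12 unimpaired, and all 10 young CA3 libraries were at 0. Impaired rat R2233 had 374 normalised reads, rat R2231 54.6, rat R9781 33.8, rat R2238 24.3 and rat R2235 22.4, while the highest unimpaired library had 6.46. The impaired values thus ranged over all of the unimpaired ones and far beyond. The limma difference of 1.34 ± 0.825 had p = 0.117, whereas edgeR gave 4.53 with p = 1.94e-04 and an adjusted p of 0.9999, and DESeq2 4.45. The size thus depended on the method, and no fold is given. The difference was 1.78 in the Ion Proton table (one-sided p = 0.0189) and 1.84 in the WT table (p = 0.0323), and edgeR retested the gene. The Ion Proton table again gave rat R2233 the most, 315. In the Illumina table Prl passed the filter of a mean of 10 only with rat R2233 included. It was thus tested in 23 of the 24 fits that each left out 1 library. In rats below 9000, which include R2233, its limma difference was 2.44 (p = 0.0260) and 3.16 (p = 0.0172) in the Ion Proton table. From 9000 up it was under the filter in both. Pituitary genes other than Prl that were tested, Pomc and Chga, had differences of 0.60 ± 0.386 (p = 0.130) and -0.15 ± 0.111 (p = 0.191). In CA1 of the same rats Prl had its highest value of 121 in an impaired rat, against at most 8.72 in unimpaired rats, and in DG the highest were 59.0 and 4.204. Wnt6, a secreted Wnt ligand, was under the filter of a mean of 10 and was not tested. It ran from 0 to 9.32 (median 1.79) in impaired and from 0.395 to 35.4 (median 2.88) in unimpaired rats, with old CA1 medians of 1.42 and 1.56 and DG medians of 1.85 and 0. Of the impaired libraries 9 of 12 lay below the unimpaired median, and 10 of 12 in the Ion Proton table.

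Of the 23 seed genes, 20 were not retested. The sizes of the 23 seed differences ran from 0.15 to 1.02 with a median of 0.31. The largest un-retested one was Zfp185, a LIM-domain protein of the actin cytoskeleton, at 1.02 ± 0.355 (p = 0.00790). It ran from 8.95 to 46.3 (median 18.8) in impaired and from 1.44 to 22.6 (median 12.3) in unimpaired rats, while the Ion Proton difference was 0.33 ± 0.586. Zfp185 differed by 0.57 below 9000 and 1.56 from 9000 up, and by 0.67 (p = 0.0639) without the displaced libraries. The unnamed gene model AABR06070618.1 followed with 0.74 ± 0.231 (p = 0.00374), at medians of 13.1 and 8.27. Lower in impaired rats were Ramp3, a partner protein of the calcitonin receptor-like receptor, with -0.71 ± 0.247 (p = 0.00788), and Tnnc2, the calcium-binding troponin C of fast muscle, with -0.64 ± 0.215 (p = 0.00585). P2rx5, an ATP-gated ion channel, was lower too, with -0.59 ± 0.185 (p = 0.00361) and medians of 13.5 against 21.3. Ramp3 had a WT difference of -0.66 ± 0.277 and an Ion Proton difference of -0.68 ± 0.473. Its Illumina difference was -0.30 below 9000 and -1.13 from 9000 up. In CA1 2 of the 21 seed genes tested there, and in DG 1 of 22, had an unadjusted p under 0.05, against 5.71% and 3.85% of all genes. The CA1 genes went the opposite way to CA3, P2rx5 at 0.39 (p = 0.0399) and Fer, a tyrosine kinase, at -0.13 (p = 0.0368) in CA1 against 0.20 in CA3. The DG gene, Parva, an adaptor of integrin adhesions, went the same way, at 0.24 (p = 0.0394) against 0.32. Fer and Parva are named after their values were seen.

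Fitting the number series as a covariate kept 20 of the 23 seed genes at p under 0.01, and leaving out the 4 displaced libraries kept 10. Genes under 0.01 numbered 32 (0.225%) and 34 (0.239%) in these fits. With the covariate 7 genes were retested, all higher in impaired rats, of which Acvr1c and Gabrb1 were shared with the fit above and the others were Amot, Fam189a1, Hdac9, Nlgn1 and Tead1. Pcdh19 was no longer a seed gene, with p = 0.0104 and a difference of 0.56 against 0.57 without the covariate. Amot, Fam189a1, Hdac9, Nlgn1 and Tead1 are named after their values were seen. Hdac9, a class IIa histone deacetylase, ran from 331 to 740.2 (median 615) in impaired and from 205 to 609.7 (median 436) in unimpaired rats, but from 614 to 740.2 (median 639) and from 450.2 to 609.7 (median 598) among rats below 9000 and from 331 to 462 (median 412) and from 205 to 421 (median 330.4) among the others. Its difference had p = 0.0665 without and p = 0.00455 with the series in the model. Tead1, a transcription factor of the Hippo pathway, and Amot, a membrane scaffold of that pathway, had differences of 0.44 ± 0.130 and 0.23 ± 0.0762 with the series in the model. Amot ran from 203 to 274 (median 228) and from 199 to 242 (median 216) below 9000 against from 354 to 548 (median 419) and from 279.9 to 409 (median 335) from 9000 up. Tead1 differed by 0.13 below 9000 and 0.80 from 9000 up, and by 0.22 (p = 0.165) without the displaced libraries. Without the displaced libraries Amot differed by -0.015 ± 0.154. Nlgn1, a postsynaptic adhesion protein that binds neurexin, differed by 0.22 ± 0.0785 and Fam189a1 by 0.27 ± 0.0871.

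Gene groups of the synapse and the membrane were described by fixed lists beside the median of all genes, which was -0.0019 with 6988 of 14232 higher in impaired rats (49.1%). In all 54 lists together no member passed the adjusted threshold. Among glutamate receptors no member reached an unadjusted p under 0.05. Of AMPA receptor genes 9 of 15 were higher (median 0.060), of NMDA receptor genes 5 of 8 (median 0.12), of kainate receptor genes 5 of 6 (median 0.049) and of metabotropic receptor genes 6 of 10 (median 0.054). Grin2b and Grin2a, subunits that bind glutamate in NMDA receptors, differed by 0.37 ± 0.251 (p = 0.152) and 0.31 ± 0.226 (p = 0.184). Grin2b ran from 475 to 4743 (median 614) in impaired and 407 to 858 (median 584) in unimpaired rats, and its Ion Proton difference of 0.36 had p = 0.00639. Grik2, a kainate receptor subunit at mossy fibre synapses, differed by 0.16 ± 0.0871 (p = 0.0861), and Grm7, a presynaptic metabotropic receptor, by 0.17 ± 0.0897 (p = 0.0759). Nptx2, a secreted pentraxin that gathers AMPA receptors, differed by 0.27 ± 0.179 (p = 0.146).

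Of 13 GABA-A receptor subunits tested, 10 were higher, 2 had an unadjusted p under 0.05, against 1.4% of all genes tested, and the median was 0.054. They were Gabrb1, which the study chose on these samples, and Gabra2, an alpha subunit, which ran from 1621 to 2181 (median 1989.5) in impaired and 729 to 2102 (median 1618) in unimpaired rats, with 12 of 12 impaired libraries above the unimpaired median. Gabra2 differed by 0.31 ± 0.129 (p = 0.0250), with an Ion Proton difference of 0.25 (p = 0.261). The gephyrin scaffold and GABA-B group had 9 of 12 higher and a median of 0.034, and its lowest p belonged to Kctd16, an auxiliary subunit of GABA-B receptors, with 0.32 ± 0.174 (p = 0.0807). Markers of interneurons, the source of GABA, ran from 12203 to 21629 (median 19517) summed normalised reads in impaired and 15924 to 22028 (median 19775) in unimpaired rats. Of them 4 of 14 were higher and the median was -0.10, with Sst, the somatostatin gene of dendrite-targeting interneurons, at -0.24 ± 0.186 (p = 0.207). The interneuron median was 0.018 without the displaced libraries, 0.033 in rats below 9000 and -0.28 from 9000 up.

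Of 18 protocadherins tested, 13 were higher, with a median of 0.12 and 2 at an unadjusted p under 0.05, against 1.4% of all genes tested. These were Pcdh17 and Pcdh19, both chosen by the study on these samples. Pcdhb4, a clustered protocadherin whose near-identical neighbours may share its reads, had 0.21 ± 0.123 (p = 0.105). Classical cadherins and catenins had 8 of 19 higher and a median of -0.0099, and the lowest p belonged to Cdh9, a cadherin of mossy fibre and CA3 neurons, with 0.54 ± 0.264 (p = 0.0517). Cdh9 ran from 351 to 817 (median 661) in impaired and 135 to 849.7 (median 509.5) in unimpaired rats. Postsynaptic scaffold and adhesion genes had 16 of 23 higher (median 0.057), with Nlgn1 at 0.26 ± 0.117 (p = 0.0369). Vesicle release genes were split, 13 of 26 being higher, around a median of 0.0012, with Bsn, a scaffold of the active zone, at 0.20 ± 0.133 (p = 0.137).

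Among channels, 19 of 28 potassium channel genes were higher (median 0.090), and the 2 with an unadjusted p under 0.05, against 1.4% of all genes tested, went opposite ways. Kcnip1, a calcium-binding partner of Kv4 channels, was lower with -0.35 ± 0.130 (p = 0.0133), and Kcnd3, the Kv4.3 channel, was higher with 0.29 ± 0.120 (p = 0.0242). Kcnip1 ran from 55.2 to 126 (median 79.3) in impaired and 71.7 to 144 (median 103) in unimpaired rats, so that the groups overlapped broadly. Of voltage-gated calcium channel genes 9 of 15 were higher (median 0.039), and Cacna1c, the L-type Cav1.2 channel, had 0.40 ± 0.185 (p = 0.0411) with an Ion Proton difference of 0.44 (p = 0.0334). Cacna1c ran from 719 to 2386 (median 1007) and 365 to 1134 (median 856). Genes of calcium stores, pumps and sensors had 12 of 27 higher, with S100a10, the annexin A2 partner p11, at -0.35 ± 0.162 (p = 0.0384) and the store release channel Ryr3 at 0.21 ± 0.141 (p = 0.156). CaM kinase, calcineurin and protein kinase C genes had no member at p under 0.05 (median 0.031). Gap43, a growth cone protein, came first there with -0.26 ± 0.157 (p = 0.111), and 11 of 12 impaired libraries did not exceed the unimpaired median.

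Activity-dependent early genes, which neurons switch on within minutes of firing, had 10 of 20 higher and a median of -0.036. Jun had 0.22 ± 0.0982 (p = 0.0366), and Npas4, an early gene induced by calcium entry, had -0.47 ± 0.285 (p = 0.112) with an Ion Proton difference of -1.002 (p = 0.0611). Bdnf, a neurotrophin, had 0.19 ± 0.197 (p = 0.338), and cyclic AMP genes had a median of 0.025 with Crem, a cyclic AMP responsive repressor, at -0.16 ± 0.0742 (p = 0.0440). Of 30 Wnt pathway genes tested 15 were higher, and Wnt7b, a Wnt ligand of neurons, had 0.32 ± 0.1502 (p = 0.0402). Circadian clock genes had 1 of 14 higher with a median of -0.074 and none at p under 0.05. Dbp, a clock output factor, came first with -0.25 ± 0.151 (p = 0.104), and the hour of death is not given in the sources used here. Nuclear genes of the respiratory chain had 5 of 26 higher and a median of -0.055, again with none at p under 0.05. Of the remaining lists, redox enzymes had a median of -0.014, purine salvage -0.017, HCN and sodium channels 0.035, neurotrophins -0.031, corticosteroid target genes -0.064, insulin signalling 0.051, cholesterol synthesis 0.00062, chaperones 0.0054, lysosome -0.0042 and matrix genes 0.060.

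**Figure D4:**
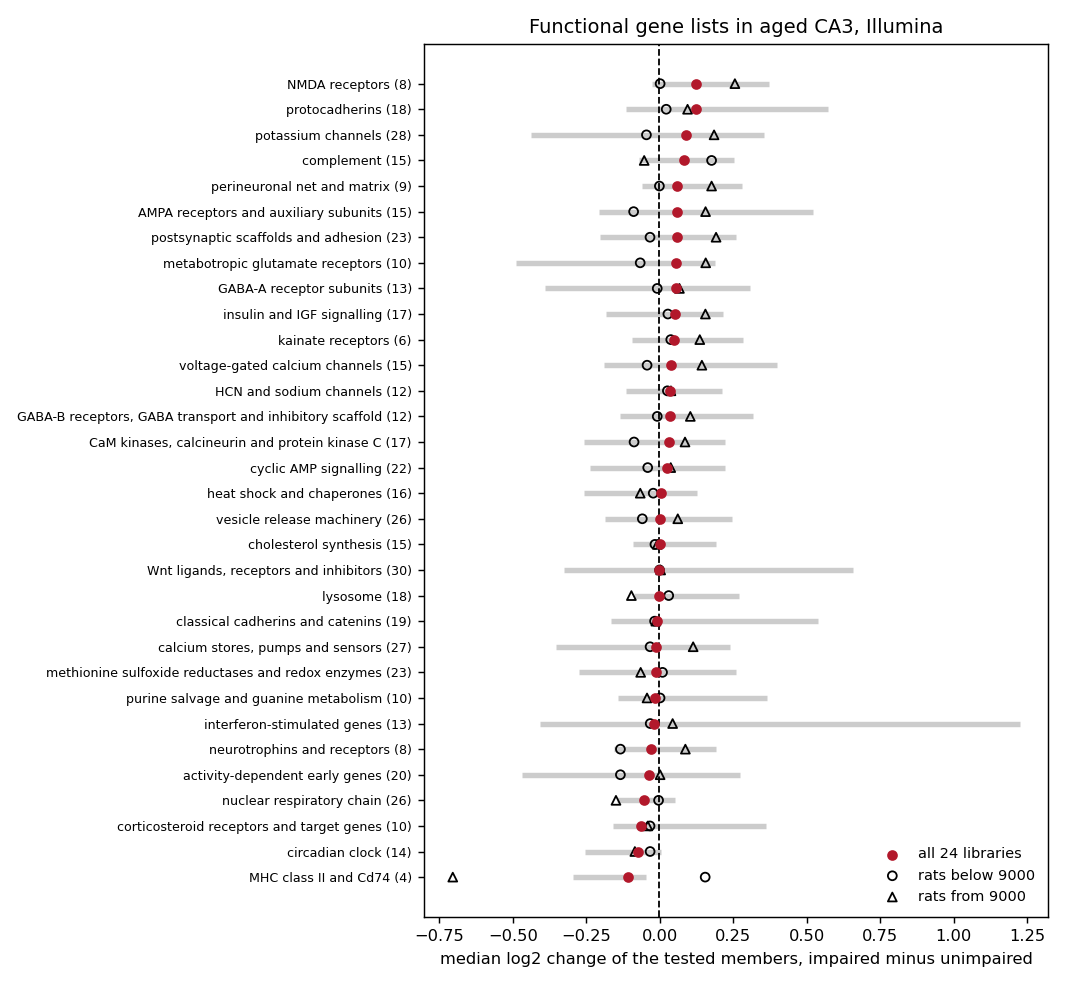
Each row is 1 of the functional gene lists described, with the number of its tested members in brackets. Red points are the median log2 difference of the members (x axis, impaired minus unimpaired) over 24 libraries, open circles and triangles the medians within rats below 9000 and from 9000 up, grey bars the range over members, and the dashed line the median of all genes. Medians over 24 libraries run from -0.11 to 0.12, and some lists have medians of opposite sign in the number series.

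Medians of 21 of the 33 functional lists had opposite signs in the number series. For AMPA receptors the median was -0.089 in rats below 9000 and 0.16 from 9000 up, and for potassium channels -0.045 and 0.18. MHC class II genes, which present antigen in microglia and other myeloid cells, had 0.15 and -0.70. Dentate granule cell markers also differed between the series, at -0.25 and 1.01, and their summed level in rats from 9000 up ran from 2254 to 8568 (median 4937) in impaired and 1576 to 5790.5 (median 2445) in unimpaired rats. Their part in the list medians was not tested. Below 9000 the same sums were 1841 to 2319 (median 2125) and 1915 to 3412 (median 2485). Of the 33 list medians 20 had the opposite sign in the WT table to that in the Illumina table, among them protocadherins (-0.081), GABA-A receptor subunits (-0.056), potassium channels (-0.030), calcium channels (-0.023) and postsynaptic scaffolds (-0.032). For 8 of the 33 lists the Ion Proton sign was opposite to the Illumina sign.

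No marker list of another cell type had a member at an unadjusted p under 0.05. Microglial markers had 14 of 18 higher with a median of 0.072 in the Illumina but 0.010 in the Ion Proton table, and summed to 10118 to 22191 (median 12461) in impaired and 10118 to 14621 (median 12459) in unimpaired rats. Their Illumina median was 0.17 in rats below 9000 and -0.080 from 9000 up. Cx3cr1, the fractalkine receptor, had 0.12 ± 0.101 (p = 0.259), and Cd68, a lysosomal protein of activated cells, 0.27 ± 0.257 (p = 0.305). Complement genes had 12 of 15 higher (median 0.083), with C3 at 0.20 ± 0.204 (p = 0.343). Of 4 MHC class II genes 0 were higher (median -0.11), with wide intervals, as for Cd74 at -0.11 ± 0.514 (p = 0.830). Among interferon-stimulated genes Mx1, an antiviral GTPase, had 1.23 ± 0.588 (p = 0.0471) and ran from 42.5 to 430.0 (median 147) and 2.99 to 302 (median 111), while the list had 6 of 13 higher. In CA1 of the same rats its medians were 21.6 and 22.4 and in DG 62.3 and 80.0, below those in CA3, and the unimpaired CA3 libraries included those of lowest CA3 marker score. Without rats R9869 and R9860 the Mx1 difference was 0.58 ± 0.452 (p = 0.211), and with the CA3 score as covariate 0.91 ± 0.451 (p = 0.0542). Both fits were chosen after the scores had been seen, and the cause of the Mx1 difference was not tested. Astrocyte markers were centred at -0.018, with Gfap, their filament protein, at 0.12 ± 0.124 (p = 0.328). Oligodendrocyte markers, genes of myelin, had 0 of 12 higher with a median of -0.14, which was 0.067 without the displaced libraries. They summed to 58730.5 to 253436 (median 164378) in impaired and 112394 to 287813 (median 159251) in unimpaired rats.

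Choroid plexus, ependyma and leptomeninges, tissues that border CA3, had medians of -0.043, -0.089 and -0.13, endothelium 0.018 and blood 0.12. Ion Proton medians of the bordering tissues were larger in size, -0.25, -0.25 and -0.56, with 1 of 11 leptomeningeal markers higher. Without the displaced libraries the Illumina medians were 0.26, 0.45 and -0.19. In rats below 9000 and from 9000 up they were 0.45 and -0.56 for choroid plexus, 0.16 and -0.63 for ependyma and 0.052 and -0.22 for leptomeninges. Oligodendrocyte precursors had -0.024, newborn neurons 0.10, subiculum -0.019 and thalamus and habenula -0.051. CA3 markers were 9 of 11 higher in impaired rats with a median of 0.14 (-0.062 below 9000 and 0.17 from 9000 up), and summed to 9337 to 28323 (median 25799) and 7973 to 27947 (median 24527). Plagl1, a zinc finger factor enriched in CA3, had the largest difference among them, 0.95 ± 0.497 (p = 0.0669). CA2 and CA1 markers had medians of -0.088 and -0.091, and dentate markers 0.15. Without the displaced libraries the dentate median was -0.13, of the opposite sign, and the CA3 median 0.36.

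The impairment effect was set against that in CA1 and DG of the same rats. CA1 had 208 seed genes (1.46%) and 88 retested genes (0.635%), and DG 70 (0.5%) and 17 (0.124%), against 23 and 3 in CA3. The difference of the effects was tested gene by gene. In limma 0 of 14232 genes passed an adjusted p under 0.05 for CA3 minus CA1 (486 at an unadjusted p under 0.05, 3.41%) and 0 of 14144 for CA3 minus DG (236, 1.67%). edgeR also gave 0 for both, with 557 and 236 at an unadjusted p under 0.05. With the rat as a block, since each rat gave both libraries, limma again gave 0 adjusted calls for both, with 769 and 390 at an unadjusted p under 0.05. In limma without the block, the Gabrb1 effect in CA3 exceeded that in CA1 by 0.38 ± 0.154 (p = 0.0184) and that in DG by 0.30 ± 0.132 (p = 0.0285). For Pcdh19 the values were 0.47 ± 0.301 (p = 0.128) and 0.67 ± 0.283 (p = 0.0230), and for Acvr1c 0.45 ± 0.308 (p = 0.151) and 0.46 ± 0.236 (p = 0.0594). With the block the limma p-values against CA1 and DG were 0.0176 and 0.0376 for Gabrb1. They were 0.104 and 0.0143 for Pcdh19 and 0.155 and 0.0738 for Acvr1c. None of these passed the adjusted threshold, so that no effect was shown to be particular to CA3. The 27 genes that the study had set out for calcium and synaptic change in CA1 had 18 of 27 higher in CA3, a median of 0.065 and none at p under 0.05. The median of the same genes was -0.28 in CA1, where the study chose them on these samples. In CA3 it was 0.0070 with the number series in the model, 0.20 without the displaced libraries, -0.10 below 9000 and 0.13 from 9000 up. The study's 25 genes of age shared by the subfields had 18 of 25 higher and a median of 0.070, but 12 of 25 and -0.0060 in the Ion Proton table. Their Illumina medians were 0.15 below 9000 and -0.060 from 9000 up.

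**Figure D5:**
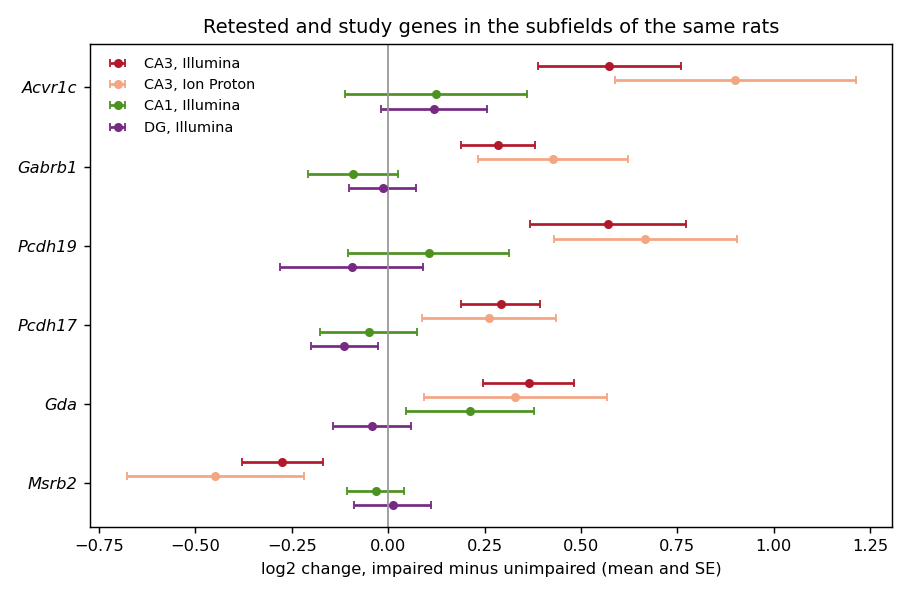
Log2 difference (x axis, impaired minus unimpaired, points with SE bars) of the retested genes and of Pcdh17, Gda and Msrb2, in CA3 in both poly-A tables and in CA1 and DG in the Illumina table. Acvr1c reaches 0.57 and 0.90 in CA3, against 0.12 in CA1 and 0.12 in DG.

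A further table, which the submitters call WT, holds the same rats, with the library type not given in the sources used here. It gave 0 adjusted calls among 13669 genes in limma, 219 genes at an unadjusted p under 0.05 (1.6%) and 26 under 0.01 (0.19%). Its differences for Acvr1c and Pcdh19 were 0.28 ± 0.176 and 0.27 ± 0.179 (p = 0.127 and 0.1504), so that neither was a seed gene there. Used in place of the Ion Proton table, it retested Glce, Parva and Ramp3, none of which the Ion Proton table had retested.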

How the data were processed

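RNA of hippocampal CA1, CA3 and DG of 34 rats was measured in 3 tables of 102 libraries each. The deposited signal is the gene counts that the authors divided by a DESeq2 size factor per library. Reads were aligned to rn5 and counted with featureCounts, after cutadapt 1.8.3 and STAR 2.5 for the Illumina libraries and TopHat2 and Bowtie2 for the Ion Proton libraries. Aligner and counter of the WT table, and whether counting used strand, are not given in the sources used here. Whole reads were recovered from all values within a tolerance of 0.01.

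Values were taken as log2(value + 1) for genes with a mean of at least 10 and tested with limma 3.58.1 (R 4.3.3) over the 24 aged CA3 libraries, two-sided, with Benjamini-Hochberg adjustment over all genes. The difference of effects between subfields was fitted over both subfields. As alternatives edgeR 4.0.16 and DESeq2 1.42.0 were run on the recovered reads, and others are listed in the closing section. The authors tested with DESeq2, which stands here among the alternatives because the deposited values are scaled. The scripts were tested on simulated data. Groups came from the sample titles, and within CA3 each library is a separate rat. All columns were mapped to a sample. Intervals from limma cover the spread between rats.

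Genes named were the retested genes, the CA3 genes of the study, up to 3 members with the smallest p of each list described, and the 5 seed genes with the largest difference that were not retested. Exceptions are stated, and some genes that the rule names are not reported here. The members and lists were chosen with earlier results of these data known.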

Additional observations from a re-analysis of the deposited data

Results flagged for a closer look

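Of 8 groups examined for a library far from the others (Acvr1c and the CA3 genes of the study in the 10 young CA3 libraries, Prl aside, which was at 0 in all of them), 1 was marked. The limit used marks about 1 in 20 groups by chance if values are normally distributed, which was not tested for these reads. Wnt6 reached 619.6 normalised reads in the young CA3 library of rat R9876, and the next highest library held 5.15. The Ion Proton library of the same rat held 393.6. Young rats do not enter the comparison of impaired with unimpaired rats.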

How the results depend on the processing

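No alternative gave an adjusted call for impairment in CA3 or for the difference of effects between subfields, and 0 remained the count when each of the 24 libraries was left out. Genes at p under 0.01, 23 in number, were 65 without the filter on low values, 44 in rats from 9000 up and 15 without the 4 deeply sequenced rats, and ran from 14 to 35 when 1 library was left out. Retested genes, 3 in number, were 5 without the filter, 5 with DESeq2, 7 with the number series as covariate, 15 in rats from 9000 up, 6 with CA1 and dentate marker scores as covariates, 0 without the deeply sequenced rats, 5 with young libraries in the fit and 6 with the Ion Proton table first. They ran from 0 (without unimpaired rat R9860) to 8 (without unimpaired rat R2232) when 1 library was left out. Without impaired rats R2235 or R2238 or unimpaired rats R9862 or R9869 there was 1. The cause was not tested. The genes changed too: edgeR retested 4 genes, of which 1 (Gabrb1) was among the 3, DESeq2 shared 2 (Acvr1c and Pcdh19), the number series as covariate 2, and rats below 9000 (2 retested), the fit without displaced libraries (3) and the WT table in second place (3) shared 0. Pseudocount 0.1 and quantile normalisation left the same 3 retested genes. Libraries of 1 rat share its number by the labels, and with the rat as a replicate block the counts of adjusted calls stayed at 0 for both differences between subfields. The test of the difference between number series was chosen after seeing the data and gave 0 adjusted calls in both poly-A tables, with 494 and 248 genes at an unadjusted p under 0.05. Also chosen after seeing the data were a fit without unimpaired rats R9869 and R9860, which had the lowest CA3 marker scores, and a fit with the Illumina CA3 score as covariate. They gave 0 adjusted calls each, 8 and 35 genes at p under 0.01, and 0 and 8 retested genes, 2 of the 8 among the 3. For Acvr1c and the 7 tested CA3 genes of the study, 302 values were computed, the fits on CA3 score not counted, of which 0 changed direction, 72 lost and 5 gained an unadjusted p under 0.01. Prl had 36 of these values and each other gene 38, since Prl was under the filter in some fits. Whether depth limited the number of calls was not tested.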
